A study of Homo sapiens with 12 samples.

Results

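NEAT1 and MALAT1 are neighbouring genes of long noncoding RNAs (lncRNAs) on chromosome 11, and their H3K27ac and HSF1 peaks were described here in Huh7 cells, a human hepatocellular carcinoma line. Both genes lie on the plus strand, NEAT1 at chr11:65190269-65213011 and MALAT1 at chr11:65265233-65273940 on hg19. In GENCODE release 44 on hg38 they are ENSG00000245532 at chr11:65422774-65445540 and ENSG00000251562 at chr11:65497640-65508073. The members were 25 of the 41082 H3K27ac ChIP-seq peaks of cells transfected with the control siRNA (siNC) and 25 of the 45586 peaks of cells transfected with siRNA against HSF1 (siHSF1), chosen because they touch chr11:65150000-65300000. To these came 2 of 7147 HSF1 CUT&Tag peaks and 1 of 1299 H3K27ac CUT&Tag peaks, chosen because they lie within 30 kb of either gene body on hg38. The rule uses positions alone, but the locus was proposed with earlier results of these data known.

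The cells were wild type, and the ChIP-seq cells were taken 48 h after transfection, with Lipofectamine RNAiMAX in both arms, while the CUT&Tag cells were untreated. Each condition had 1 library, so nothing below has a replicate check and no test across replicates could be made. Which siRNA against HSF1 was used for ChIP-seq is not named in the labels, and the HSF1 level after transfection was not analysed here. After duplicates were removed, siNC kept 9795121 tags at a fragment length of 297 bp, and siHSF1 kept 10793650 tags at 175 bp. These lengths are also the shortest peak each list can hold. A pileup counts the extended tags over a peak's summit, and the fold enrichment divides that count by the local background, after 1 is added to each. The HSF1 and H3K27ac CUT&Tag lists rest on 2712212 and 896393 tags, which were 75.2% and 5.70% of the tags before duplicates were removed. Intervals below are 95% intervals for counting error only, exact Poisson for a pileup and exact binomial for a ratio of pileups.

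NEAT1 RNA is the scaffold of paraspeckles, nuclear bodies that form around its long isoform and hold RNA-binding proteins such as SFPQ and NONO. MALAT1 RNA collects in nuclear speckles, the neighbouring bodies rich in splicing factors, and is one of the most abundant nuclear RNAs of many cell types. H3K27ac marks active promoters and enhancers. HSF1 is the transcription factor of the heat shock response, and its trimers bind heat shock elements, arrays of GAA and its reverse complement TTC.

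HSF1 had 1 CUT&Tag peak upstream of NEAT1 and 1 at the start of MALAT1, and neither gene body beyond its start held a peak. The peak upstream of NEAT1, chr11:65418637-65419247 on hg38, was 611 bp long with its summit 3.69 kb before the annotated start of NEAT1 and outside any annotated gene. Its nearest annotated start was that of the lncRNA gene ENSG00000290057, 2.37 kb away. Its pileup was 20 tags (12.2 to 30.9), above that of 80.8% of HSF1 peaks, and its fold enrichment of 5.36 was above that of 11.7%. The local background there was 2.92, against a median of 0.94 over the list. The peak was thus high in tags and low in enrichment.

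The HSF1 peak at MALAT1, chr11:65497543-65497894 on hg38, was 352 bp long and covered the start. Its summit lay in an exon of MALAT1, 157 bp inside the outermost GENCODE start and 59 bp inside the RefSeq start. It had a pileup of 10 tags (4.8 to 18.4) and a fold enrichment of 6.04 over a background of 0.82, so that 24.3% of HSF1 peaks had a lower pileup and 28.2% a lower fold enrichment. Among 1444 lncRNA genes with an HSF1 peak within 1 kb of the start, 21.0% had a lower fold enrichment than MALAT1, and the median was 7.27. Such peaks were listed at 7.65% of the 18866 annotated lncRNA genes.

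The sequences around these summits are shown because the heat shock element and the CCAAT box, the motif the study names at HSF1 peaks, were searched in them. Each is 201 bases of the plus strand of hg38 centred on the summit, and capitals would mark a match on either strand to CCAAT, to GAANNTTC or to the heat shock element. The element was spelled as GAANNTTC followed by NNGAA, and 1 of its 9 fixed bases was allowed to differ.
HSF1 summit upstream of NEAT1, chr11:65418980-65419180: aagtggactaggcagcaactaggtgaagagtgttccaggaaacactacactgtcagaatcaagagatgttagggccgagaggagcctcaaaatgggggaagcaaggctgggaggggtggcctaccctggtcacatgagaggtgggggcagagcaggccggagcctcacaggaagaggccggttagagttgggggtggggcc
HSF1 summit at MALAT1, chr11:65497697-65497897: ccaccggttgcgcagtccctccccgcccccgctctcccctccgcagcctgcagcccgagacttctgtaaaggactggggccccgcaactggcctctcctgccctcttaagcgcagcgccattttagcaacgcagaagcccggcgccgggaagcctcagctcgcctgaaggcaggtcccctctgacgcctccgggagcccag

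Neither window held a match to any of the 3 motifs, and the closest stretch of each differed from the heat shock element at 2 of the 9 fixed bases. Over all 7147 HSF1 summits, 2.42% held the heat shock element within 100 bp and 30.7% held CCAAT. With these shares, windows without a match are the common case. Widening the windows to 250 bp on either side left both summits without a match, while the shares over all summits were 7.26% and 49.9%. The GC content was 58.7% upstream of NEAT1 and 69.2% at MALAT1, against a median of 63.2% over all HSF1 summit windows. The MALAT1 window held 16 CpG dinucleotides and the window upstream of NEAT1 held 3.

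RefSeq gives 2 promoter windows for MALAT1, each from 250 bases before a start to 50 after it, and none was given for NEAT1. They are shown because the HSF1 peak falls on the first and the only heat shock element match falls on the second. Both are on the plus strand of hg38, with matches in capitals.
MALAT1 promoter 1, chr11:65497488-65497787: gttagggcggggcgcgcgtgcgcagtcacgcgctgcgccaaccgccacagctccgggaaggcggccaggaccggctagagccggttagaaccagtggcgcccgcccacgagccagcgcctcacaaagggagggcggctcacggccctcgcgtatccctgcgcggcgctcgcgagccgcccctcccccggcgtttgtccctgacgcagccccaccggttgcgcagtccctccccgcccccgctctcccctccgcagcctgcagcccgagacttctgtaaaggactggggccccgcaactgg
MALAT1 promoter 2, chr11:65498795-65499094: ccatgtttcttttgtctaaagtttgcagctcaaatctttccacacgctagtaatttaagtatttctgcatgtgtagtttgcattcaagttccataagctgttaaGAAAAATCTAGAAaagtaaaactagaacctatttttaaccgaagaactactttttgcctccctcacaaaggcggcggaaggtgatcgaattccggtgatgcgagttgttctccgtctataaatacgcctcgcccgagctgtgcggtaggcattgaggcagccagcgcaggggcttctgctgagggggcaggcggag

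The first promoter had a GC content of 73.7%, 37 CpG dinucleotides and no match. The second had a GC content of 46.0% and 14 CpG dinucleotides. It held 1 match to the heat shock element at 65498899 to 65498911 on the plus strand, with 1 mismatch, beyond the end of the HSF1 peak. Of 35116 RefSeq promoters of this length, 6.24% held the heat shock element at this stringency and 34.6% held CCAAT.

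The H3K27ac CUT&Tag list had 1 peak near the genes and none at either start. This library kept 5.70% of its tags, so a peak missing from its list, here or below, does not show that the mark was absent. The peak near the genes lay 20.1 kb before MALAT1 at chr11:65477361-65477613 on hg38. Its summit was 21 bp inside the lncRNA gene ENSG00000289883, in an exon. Its pileup was 8 tags (3.45 to 15.8) and its fold enrichment 5.36, higher than 43.0% and 21.5% of the list. The nearest HSF1 peak was the one at MALAT1, 19.9 kb away. The 201 bases around this summit are shown because they hold the CCAAT matches that the HSF1 windows lack, in capitals.
H3K27ac summit before MALAT1, chr11:65477451-65477651: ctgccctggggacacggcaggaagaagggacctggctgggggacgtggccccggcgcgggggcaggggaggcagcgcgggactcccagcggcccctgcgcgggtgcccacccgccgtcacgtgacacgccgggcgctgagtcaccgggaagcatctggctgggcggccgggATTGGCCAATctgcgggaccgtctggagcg

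The capitals are 1 CCAAT on the minus strand followed directly by 1 on the plus strand, 73 and 78 bases after the summit. Of the 1299 H3K27ac CUT&Tag summits, 17.2% held CCAAT within 100 bp.

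The ChIP-seq lists, made from more tags than the CUT&Tag list, placed H3K27ac peaks around both genes. Both lists had a peak covering the NEAT1 start. Only siNC had a peak covering the MALAT1 start, and in siHSF1 peaks lay on either side of it. Each list held 25 peaks in the window, and these covered 35.3 kb in siNC and 21.5 kb in siHSF1. Over all chromosomes the covered length was 41954 kb in siNC and 24204 kb in siHSF1. Of the 150-kb tiles of the genome with a peak, 99.0% were less covered than this window in each list. The acetylation lay mainly in 3 stretches, about 40 kb upstream of NEAT1, around the NEAT1 start, and from 24 kb upstream of MALAT1 into its body. The map of peaks by distance from the NEAT1 start shows these stretches in both arms.

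**Figure D1:**
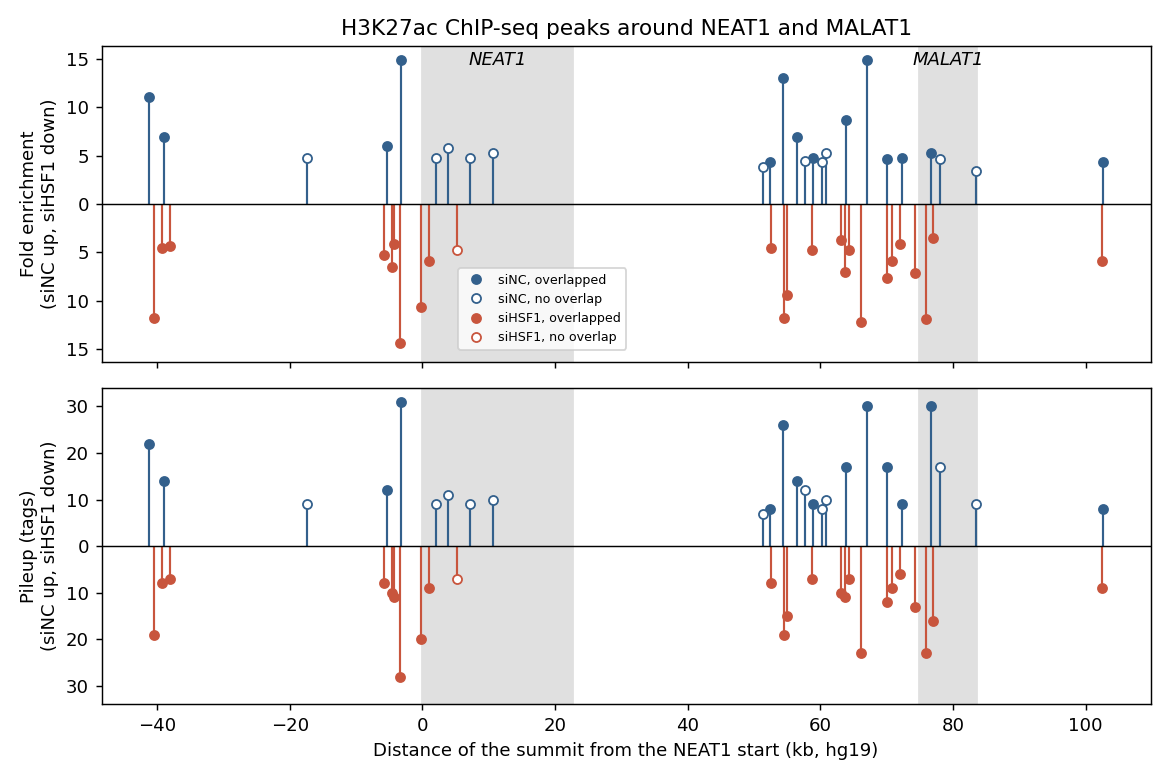
H3K27ac ChIP-seq peaks of siNC (upward) and siHSF1 (downward) against the distance of the summit from the NEAT1 start in kb, as fold enrichment (top) and pileup in tags (bottom), with gene bodies in grey and peaks without an overlapping peak in the other list as open circles. The highest fold enrichments stand just before NEAT1 (14.9 in siNC and 14.4 in siHSF1) and 67.1 kb (siNC) and 66.2 kb (siHSF1) after its start, and 11 open circles are siNC and 1 is siHSF1.

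Of the 25 siHSF1 peaks of the window, 24 overlapped an siNC peak (96.0%, Wilson interval 80.5% to 99.3%), leaving 1 alone, against 25.4% alone over the whole list. Of the 25 siNC peaks, 14 overlapped an siHSF1 peak (56.0%, 37.1% to 73.3%), leaving 11 alone, against 48.3% alone over the whole list. The share of siNC peaks alone was thus near the background. The 24 overlapping siHSF1 peaks lay in 11 merged regions, up to 6 in 1 region, so they are not independent of each other and the interval is too narrow. With fold enrichments of at least 5 in both lists, 12 of 15 siHSF1 peaks of the window overlapped. The share over the whole list at this minimum was not computed, so this count has no background beside it. The 11 siNC peaks alone had pileups of 7 to 17 tags and fold enrichments of 3.41 to 5.78, and 3 of them lay above the list's median fold enrichment of 5.12. Among siNC peaks of the window at or under that median, 61.5% were alone, against 68.2% of such peaks everywhere. Among those above it, 25.0% were alone, against 27.4%. The siHSF1 peak alone was 1 of 11 at or under its list's median fold enrichment of 5.43 (9.09%, against 39.1% everywhere), and 0 of 14 above it were alone, against 11.8%.

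The NEAT1 start lay inside a broad acetylated region in both arms, at nearly the same fold enrichment. In siNC the region held 2 peaks, and the larger ran over 6457 bp from 5.01 kb before the start to 1.45 kb inside the gene. Its summit lay 3.30 kb before the start, with a pileup of 31 tags (21.1 to 44.0) and a fold enrichment of 14.9, rank 711 of the siNC list and higher than 98.2% of it. In siHSF1 the same region was listed as 6 shorter peaks. The highest had its summit 3.38 kb before the start, 78 bp from the siNC summit, with a pileup of 28 tags (18.6 to 40.5) and a fold enrichment of 14.4, rank 610 of the siHSF1 list and higher than 98.6% of it. Another siHSF1 peak lay on the start itself, with its summit 180 bp before it, a pileup of 20 tags and a fold enrichment of 10.7.

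Across the NEAT1 start region the log2 change of fold enrichment from siNC to siHSF1 was -0.04, and 46.6% of the 19826 regions with peaks in both lists had a lower change. The pileup per tag changed by -0.29 on the log2 scale (-1.08 to 0.50). The interval holds both a fall and a rise, so no difference was detectable at this depth. After division by the fragment length as well, the log2 change was 0.48, so its sign depended on the measure. The HSF1 CUT&Tag summit lay 3718 bp before the RefSeq start of NEAT1 on hg38, and the H3K27ac ChIP-seq summits lay 3302 bp (siNC) and 3380 bp (siHSF1) before its start on hg19. The NEAT1 body measures 22743 bp on hg19 and in RefSeq on hg38. These distances are given side by side from each build's own gene start, and no position was converted.

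**Figure D2:**
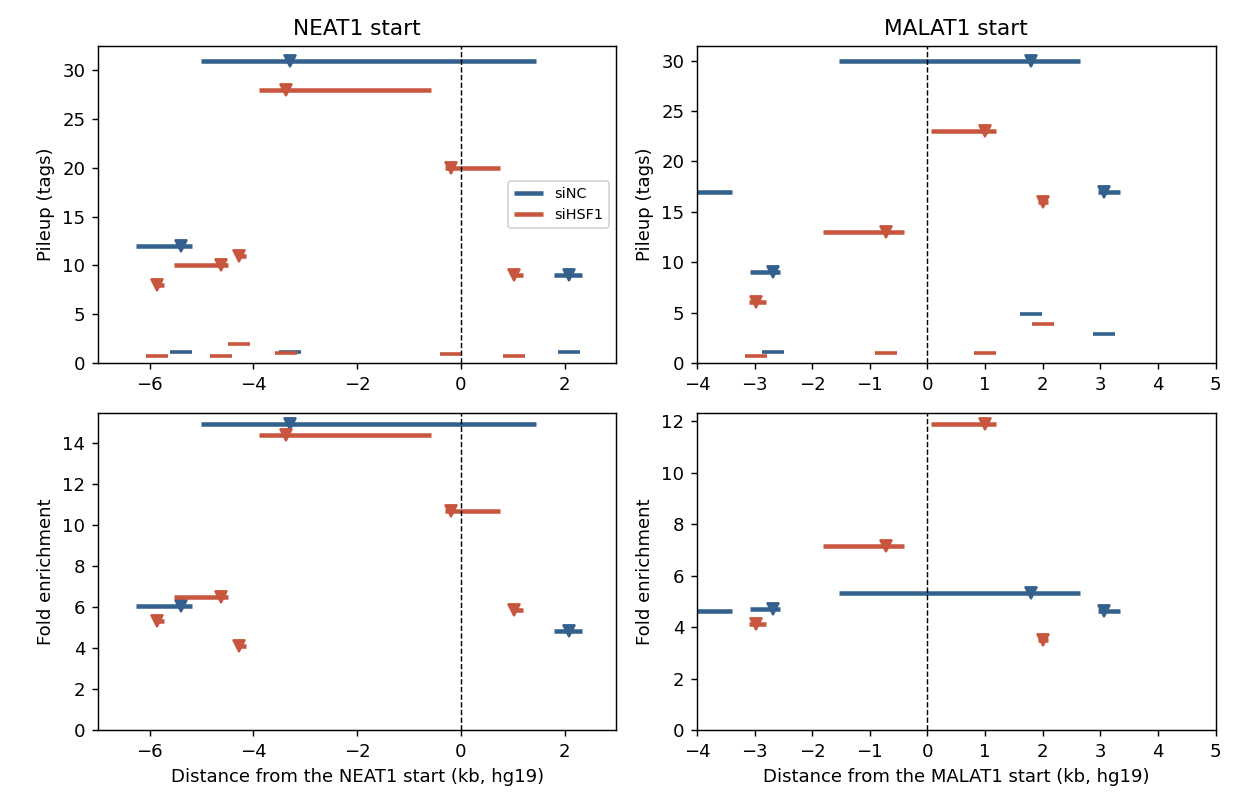
Peaks at the starts of NEAT1 (left) and MALAT1 (right) by distance from the start in kb, siNC in blue and siHSF1 in red. Lines span each peak, triangles mark summits, the height is the pileup in tags (top) or the fold enrichment (bottom), and short dashes give the local background at each summit. At NEAT1 the top summits nearly coincide, and at MALAT1 the siNC summit and the siHSF1 summit near 2 kb carry local backgrounds of 4.83 and 3.84.

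Inside the NEAT1 body the peaks were few and low in both arms. In siNC, 4 peaks had summits 2.09, 3.84, 7.19 and 10.6 kb after the start, with pileups of 9 to 11 tags and fold enrichments of 4.81 to 5.78. None of them overlapped an siHSF1 peak. Over the whole list 48.3% of siNC peaks were alone. The share was 68.2% at or under the median fold enrichment and 27.4% above it. In siHSF1, 2 peaks had summits 1.03 and 5.18 kb after the start, with pileups of 9 and 7 tags and fold enrichments of 5.88 and 4.71. No peak of either list had its summit more than 10.6 kb into the body, although the gene runs on for 22743 bp.

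Between the genes, 12 peaks of each list had their summits, and all of them lay within 24 kb of MALAT1. The highest siNC peak there had its summit 7.86 kb before MALAT1, a pileup of 30 tags (20.2 to 42.8) and a fold enrichment of 14.9. The highest siHSF1 peak lay 8.75 kb before MALAT1, with a pileup of 23 tags (14.6 to 34.5) and a fold enrichment of 12.2. The next siNC peak in height had its summit 20.6 kb before MALAT1 with a pileup of 26 tags and a fold enrichment of 13.0. Its siHSF1 counterpart lay 20.4 kb before MALAT1 with a pileup of 19 tags and a fold enrichment of 11.8. The H3K27ac CUT&Tag summit lay 20187 bp before the RefSeq start of MALAT1 on hg38. The summits of this last pair lay 20567 bp (siNC) and 20388 bp (siHSF1) before the start on hg19, and no position was converted. The MALAT1 body measures 8708 bp on hg19 and 8779 bp in RefSeq on hg38, so its starts on the builds need not be the same base.

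At the MALAT1 start too, the direction of the change depended on the measure. In siNC 1 peak of 4178 bp covered the start, with its summit 1.79 kb inside the body, a pileup of 30 tags (20.2 to 42.8) and a fold enrichment of 5.32. In siHSF1 the region held 3 peaks, and none of them covered the start. The first had its summit 717 bp before the start, with a pileup of 13 tags and a fold enrichment of 7.15. The second had its summit 994 bp inside the body, with a pileup of 23 tags (14.6 to 34.5) and a fold enrichment of 11.9. The last had its summit 2001 bp inside the body, with a pileup of 16 tags (9.15 to 26.0) and a fold enrichment of 3.51.

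The highest fold enrichment of the MALAT1 region thus went from 5.32 to 11.9, a log2 change of 1.16 or 2.23-fold, higher than at 98.8% of shared regions. The siNC summit was above 57.8% of its own list in fold enrichment and the siHSF1 summit above 96.4% of its list, while in pileup both were above 96.7%. The highest pileup went from 30 to 23 tags, a log2 change per tag of -0.52 (-1.37 to 0.31), with 50.4% of shared regions lower. The local background was 4.83 at the siNC summit, higher than at 99.4% of siNC peaks, and 1.02 at the siHSF1 summit with the highest fold enrichment. Both lists held a high background near 2 kb into MALAT1, since it was 3.84 at the siHSF1 summit at 2001 bp, higher than at 99.7% of siHSF1 peaks. When the siNC peak was set against this siHSF1 peak, 212 bp away, the fold enrichment changed by -0.60 and the pileup per tag by -1.05 (-2.02 to -0.13) on the log2 scale. This pairing was chosen after the values were seen. The part of the background in the change of fold enrichment was not tested.

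Further into MALAT1, siNC had 2 peaks without an siHSF1 counterpart. Their summits lay 3.06 and 8.46 kb after the start, with pileups of 17 and 9 tags and fold enrichments of 4.62 and 3.41. Both were under the list's median fold enrichment of 5.12. Of all siNC peaks at or under it, 68.2% were alone. Past the gene, each list had 1 peak, 27.6 kb (siNC) and 27.5 kb (siHSF1) after the start, with pileups of 8 and 9 tags.

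Over the window, 11 regions had peaks in both lists, and their median log2 change of fold enrichment was -0.04, with 7 lower and 4 higher in siHSF1. The changes ran from -0.60 to 1.16. Over all 19826 shared regions the median was -0.01 and the quartiles were -0.31 and 0.30. The MALAT1 start was the only region of the window higher by 1.5-fold or more, a size reached upward at 11.0% of all shared regions. The region 38.2 kb before NEAT1 was the only one lower by that much, a size reached downward at 10.3%. There the fold enrichment was 6.98 in siNC and 4.59 in siHSF1, with pileups of 14 and 8 tags. The window was therefore close to the background in both directions.

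By pileup per tag, 10 of the 11 regions were lower in siHSF1, with a median log2 change of -0.52. The median over all shared regions was -0.53, and 90.7% of them were lower, so the window moved as the whole list did. Every one of the 11 intervals for counting error included 0. After division by the fragment length as well, the median was 0.24 in the window and 0.24 over all shared regions. The fragment length differed between the libraries and cannot be told apart from the siRNA here.

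**Figure D3:**
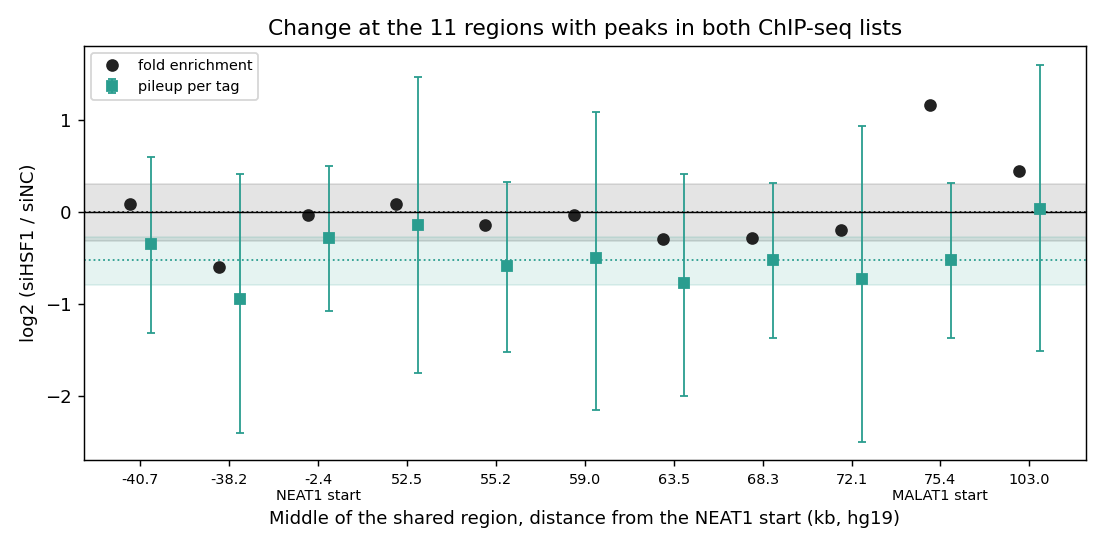
log2 of siHSF1 over siNC at the 11 regions of the window with peaks in both lists, by the distance of the region's middle from the NEAT1 start in kb. Circles give fold enrichment and squares pileup per tag with its 95% interval for counting error, and shaded bands and dotted lines give the quartiles and median over all 19826 shared regions. The MALAT1 start stands apart in fold enrichment, at 1.16, and not in pileup per tag, at -0.52.

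Stitched enhancers were rebuilt because the study ranked such regions to call super-enhancers, large clusters of enhancers with unusually high signal. Peaks within just over 12 kb of each other, the distance the study set in ROSE, were joined. Each joined region was ranked by the sum over its peaks of summit pileup above background, scaled to 1000000 tags, times peak length. The cutoff was set where the curve of signal against rank, both scaled to 1, reaches a slope of 1. The MALAT1 region was above this cutoff in both arms. It ranked 299 of 14420 in siNC (the top 2.07%), at 1.70 times the cutoff, and 182 of 13377 in siHSF1 (the top 1.36%), at 2.11 times the cutoff. In siNC it joined 15 peaks over 32.7 kb, with 20.6 kb covered at a length-weighted mean scaled summit pileup above background of 1.98. In siHSF1 it joined 14 peaks over 24.7 kb, of which 13.9 kb were covered at a mean of 1.49. The lists differ in length, fragment length and covered length, so the ranks describe each list and are not read as a change.

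The NEAT1 region lay at the edge of the cutoff. It ranked 726 in siNC, where 666 regions passed, at 0.943 times the cutoff. In siHSF1 it ranked 507, where 642 passed, at 1.18 times the cutoff. In siNC it joined 7 peaks over 28.2 kb with 9.53 kb covered at a mean of 2.37, and in siHSF1 7 peaks over 11.2 kb with 6.18 kb covered at a mean of 1.88. The change of side did not hold under the other settings. With a stitching distance of 5 kb NEAT1 passed in both arms, at 1.04 and 1.21 times the cutoff, and likewise with fold enrichment as the signal, at 1.22 and 1.07 times. With 20 kb the order was turned, at 1.54 times in siNC, where the region joined the peaks 40 kb upstream, and 0.997 times in siHSF1.

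Genes of paraspeckle proteins, the partners of NEAT1, were described next by the HSF1 and H3K27ac CUT&Tag peaks within 1 kb of their starts. Of 28 such genes, 18 had an HSF1 peak (64.3%, Wilson interval 45.8% to 79.3%), against 21.9% of all 20033 protein-coding genes. The 20033 genes were not matched to the 28 by expression, which was not analysed here. The fold enrichments of the 18 ran from 4.55 to 9.43 with a median of 7.01, against 7.30 over all coding genes with such a peak. The highest values were those of RBM14, a coactivator-like RNA-binding protein needed for paraspeckles, at 9.43 with a pileup of 65 tags, FAM98A at 9.38 and the hnRNP HNRNPK at 8.97. SFPQ, a core protein of paraspeckles, had a peak at 7.14 with 12 tags. Its dimer partners NONO and PSPC1 had none.

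H3K27ac CUT&Tag peaks lay at 10 of the 28 starts, against 2.76% of coding genes. Of these 10, 8 also had an HSF1 peak, among them RBM14, RBM4B, HNRNPK, HNRNPA1, TARDBP, RBM12 and EWSR1. The share with an HSF1 peak among all coding starts with an H3K27ac peak was not computed. The count of 8 therefore has no background beside it. EWSR1, an RNA-binding protein, had an HSF1 fold enrichment of 7.55 and an H3K27ac fold enrichment of 8.22. TAF15 had an H3K27ac peak at 7.81 without an HSF1 peak, as had ZNF335 at 9.04. The starts of SRSF10, DAZAP1, SMARCA4, HNRNPUL1, RBM3 and RBMX had neither. NEAT1 itself had no CUT&Tag peak of either kind within 1 kb of its start.

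Genes of nuclear speckle proteins, where MALAT1 RNA collects, had an HSF1 peak at 12 of 25 starts (48.0%, 30.03% to 66.50%), against 21.9% of coding genes. An H3K27ac CUT&Tag peak lay at 0 of the 25 starts, which at 2.76% of coding genes is near the background. Their HSF1 fold enrichments ran from 5.13 to 11.4 with a median of 7.25. The highest were those of DYRK1A, a kinase that acts on splicing factors, at 11.4 with 20 tags, ACIN1 at 8.87 and PNN at 8.86. The DYRK1A summit lay 973 bp from the start, near the edge of the 1 kb window. SON, a large scaffold protein of speckles, had a peak at 5.98 with 10 tags, close to that of MALAT1. SRRM2, the other large scaffold protein, had none, nor did SRRM1, SRSF1, SRSF3, SRSF5, the kinases CLK1 to CLK4 and PRPF4B, DDX39B, RNPS1 and U2AF1. Both lists were chosen with earlier results of these data known, and neither was matched by expression to the coding genes it was set against.

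**Figure D4:**
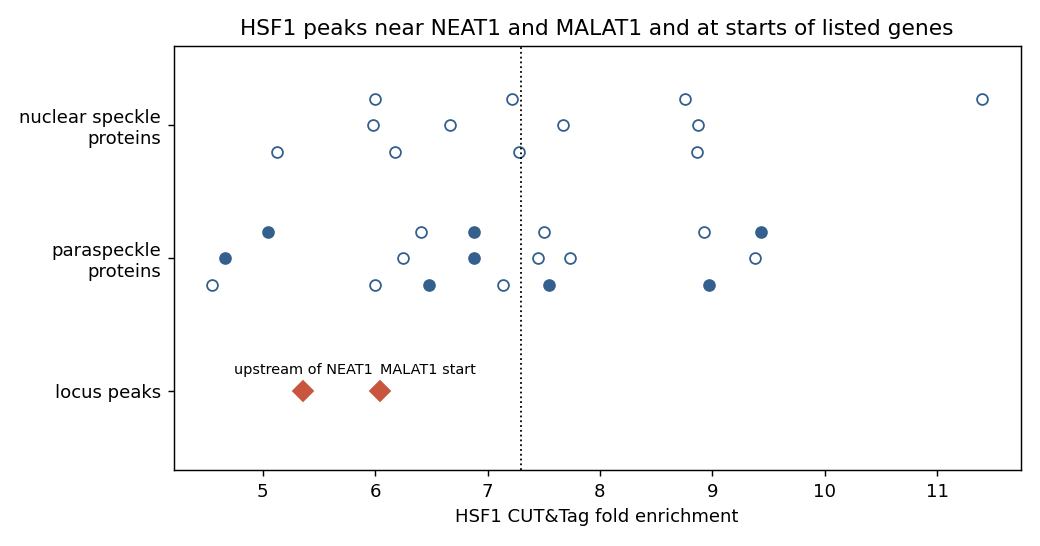
HSF1 CUT&Tag fold enrichment of the 2 peaks near NEAT1 and MALAT1 (diamonds) and of the peaks at the starts of paraspeckle and nuclear speckle protein genes (circles, filled where an H3K27ac CUT&Tag peak is also present), with the median over all coding genes with a peak as a dotted line at 7.30. Both diamonds, at 5.36 and 6.04, lie to the left of the line.

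The lncRNA genes most like MALAT1 in the highest HSF1 and H3K27ac CUT&Tag fold enrichment over the body plus 1 kb were ENSG00000270117, ENSG00000286330 and FALEC. Each had the same HSF1 fold enrichment of 6.04 and pileup of 10 tags, and no H3K27ac peak. ENSG00000270117 lies inside MALAT1 on the opposite strand and was matched through the same peak. For NEAT1 no likeness could be ranked, since it had no CUT&Tag peak over its body plus 1 kb, as had 88.4% of the 18865 other lncRNA genes.

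The label of the cells was checked on marker genes by CUT&Tag peaks within 1 kb of the start. HSF1 peaks lay at 3 of 14 hepatocyte genes, HNF4A, FOXA3 and APOB, at 1 of 5 fibroblast genes and at 0 of 5 blood genes, while ALB, AFP, TTR and SERPINA1 had none. The share of hepatocyte genes, 21.4%, was close to the 21.9% of all coding genes. H3K27ac CUT&Tag peaks lay at 0 of these 24 genes, against 2.76% of all coding genes. The marker genes thus say little about the identity of the cells.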

How the data were processed

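The deposited MACS2 peak lists of 4 libraries were used. The authors used input libraries as controls for H3K27ac ChIP-seq, at a q-value cutoff of 0.05, and no control for CUT&Tag. As deposited, the pileup is a signal that was not scaled for depth and the fold enrichment is a ratio. The caller also gave the deposited -log10 q-value and -log10 p-value. In the CUT&Tag lists, how the q-value column was made is not stated in the headers. The ChIP-seq headers name MACS 2.1.1.20160309 and hg19, although the methods name hg38, and the CUT&Tag headers name MACS 2.1.4 and hg38. Positions were not converted. RNA-seq was not analysed here.

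Only peaks on numbered chromosomes, X and Y entered. Overlap meant 1 shared bp, and overlapping peaks were merged into regions, in which the highest value of each list was compared. The local background was recovered from pileup and fold enrichment. A change was called at 1.5-fold. Gene starts are the outermost starts of GENCODE release 44, sequences come from hg38 and RefSeq. The members, the gene lists, the markers and the rule for named genes were chosen with earlier results of these data known. By that rule the text names NEAT1, MALAT1, genes of the locus with a CUT&Tag peak, listed genes with both peaks, with the 3 highest HSF1 fold enrichments or without a peak, and the 3 nearest lncRNA genes. SFPQ and SON were added after their values were seen, and the values of 1 listed gene are not reported here. The tools were pysam 0.24.0, scipy 1.17.1, pandas 2.3.3, matplotlib 3.10.9 and numpy 2.4.6 under Python 3.11.15. On simulated peak lists all 10 planted values were recovered. Alternatives covered other overlaps, q-value and fold enrichment minimums, measures of change, stitching and windows.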

Additional observations from a re-analysis of the deposited data

How the results depend on the processing

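Of 48 alternatives, 40 stayed within the interval of the value first given or within 1.5 times that value. For the median log2 change of the window, the interval came from the spread over the 11 regions and not from counting error. By it, the turn from -0.04 to 0.24 by pileup per tag and fragment length counted as staying. For the changes at the 2 gene starts, the width came from the pileup ratio and was centred on the change of fold enrichment. It leaves out the error of the background. By that width, the turn at the NEAT1 start from -0.04 to 0.48 by pileup per tag and fragment length also counted as staying. At the MALAT1 start the log2 change of 1.16 turned to -0.52 by pileup per tag and to -0.60 when the siHSF1 peak nearest to the siNC summit was taken, and moved to 0.24 by pileup per tag and fragment length. The median log2 change of the window moved from -0.04 to -0.52 by pileup per tag. With fold enrichments of at least 5 in both lists, 80.0% of siHSF1 peaks of the window overlapped an siNC peak (12 of 15). No whole-list share was computed at this minimum. The NEAT1 rank in siNC moved from 726 to 389 at a stitching distance of 20 kb. The H3K27ac CUT&Tag count went from 1 to 0 within 10 kb of the genes and with a value of at least 5 in the q column. The pairing by nearest summit was added after seeing the data. No paired analysis was possible because each condition had 1 library. With pileups of 6 to 31 tags, changes at single regions below about the width of their intervals could not be seen. The lists hold only called peaks, so a peak in 1 list alone does not show that signal was absent in the other.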

Other observations

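The next HSF1 CUT&Tag peaks outward from the genes lay 68.2 kb before NEAT1, at the lncRNA gene ENSG00000289231, with a pileup of 8 tags and a fold enrichment of 4.64, and 72.8 kb after the MALAT1 start, at ZNRD2-DT, with 15 tags and 6.90. The summits of both lay within 54 bp of an annotated start.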
